A study of Mus musculus with 32 samples.

Results

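The family C V2r co-receptors are the 7 genes Vmn2r1 to Vmn2r7, taken by gene symbol from the 49671 genes listed, beside 116 other V2r genes (symbol Vmn2r and a number). RNA was measured in the VNO neuroepithelia of 32 mice, each mouse giving 1 library, with 4 males and 4 females of each of 4 inbred strains. The labels name the strains C57/BL6 (B6), 129S6/SVEV (129), SJL/J (SJL) and SWR/J (SWR), all mice were 42 days old, and no genotype other than the strain and no treatment is given. The comparisons asked which receptor genes differ between strains and which differ between the sexes. Values are read pairs placed uniquely on a gene (counts) or, as normalized counts, the same divided by the size factor of the library.

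The vomeronasal organ detects pheromones, and its sensory neurons lie in an apical zone, with V1r receptors and the G protein subunit encoded by Gnai2, and a basal zone, with V2r receptors and the subunit encoded by Gnao1. Most V2r receptors are each made by a small subset of basal neurons, whereas family C receptors are shared broadly among basal neurons and are made together with a V2r of another family. Vmn2r1 and the Vmn2r2 to Vmn2r7 group are known to mark different sets of basal neurons, and family C proteins are thought to act as partners of the other V2r receptors rather than as the part that tells ligands apart.

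The members stand next to each other on chromosome 3 (GRCm38), in 763219 bp from 64081547 to 64844765. Vmn2r1 (ENSMUSG00000027824, 64081547 to 64109484) lies on the plus strand, and the other members lie on the minus strand. They are Vmn2r2 (ENSMUSG00000043897, 64115278 to 64141928), Vmn2r3 (ENSMUSG00000091572, 64257215 to 64289709), Vmn2r4 (ENSMUSG00000092049, 64383044 to 64415368), Vmn2r5 (ENSMUSG00000068999, 64488609 to 64509842), Vmn2r6 (ENSMUSG00000090581, 64531310 to 64565830) and Vmn2r7 (ENSMUSG00000062200, 64685044 to 64844765). All 7 are annotated as protein coding, with 6 or 7 exons and coding sequences of 2724 to 2745 bases. Of the 16 other genes annotated in this stretch, 1 passed the filter on low counts, Vmn2r-ps5. It is annotated as a polymorphic pseudogene, a class with coding sequence that is intact in some individuals of the species. Its reads were few and came mostly from 1 strain, with 266 reads over the 8 SJL libraries (20 to 56 in each), 16 over B6, 17 over SWR and 2 over 129. The 15 others had 100 or fewer reads over the 32 libraries.

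The members are close copies, so the sequence that tells them apart decides which reads can be counted. Over the aligned coding sequence, Vmn2r6 and Vmn2r7 were 98.8% identical, Vmn2r4 was 97.3% identical to Vmn2r7, and Vmn2r2 and Vmn2r5 were 93.3% identical. Vmn2r1 was the most distant member, at 84.4 to 88.0% identity to the other 6. The same coding window of 90 bases, in 1 exon of each gene, is shown because it separates the members. Members differ more here than over the whole coding sequence. The window was chosen, among those without gaps, for the most positions not alike among Vmn2r2 to Vmn2r7 (42 of 90). It lies at chr3:64101303-64101392 on the plus strand for Vmn2r1 and, on the minus strand, at chr3:64126621-64126710 for Vmn2r2, chr3:64271343-64271432 for Vmn2r3, chr3:64398506-64398595 for Vmn2r4, chr3:64495835-64495924 for Vmn2r5, chr3:64547383-64547472 for Vmn2r6 and chr3:64707165-64707254 for Vmn2r7. The sequences are those of the GENCODE M21 transcripts, 5′ to 3′, and capitals mark the bases that differ from Vmn2r7:
Vmn2r1: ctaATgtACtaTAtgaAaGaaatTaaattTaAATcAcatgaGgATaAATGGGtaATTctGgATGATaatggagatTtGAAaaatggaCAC
Vmn2r2: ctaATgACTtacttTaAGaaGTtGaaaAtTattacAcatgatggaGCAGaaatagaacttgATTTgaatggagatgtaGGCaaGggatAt
Vmn2r3: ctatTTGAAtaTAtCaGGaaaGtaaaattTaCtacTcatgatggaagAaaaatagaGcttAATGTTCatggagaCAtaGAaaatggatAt
Vmn2r4: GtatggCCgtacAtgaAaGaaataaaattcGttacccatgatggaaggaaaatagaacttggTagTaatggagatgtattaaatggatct
Vmn2r5: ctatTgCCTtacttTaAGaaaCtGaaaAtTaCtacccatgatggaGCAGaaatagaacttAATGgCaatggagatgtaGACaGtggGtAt
Vmn2r6: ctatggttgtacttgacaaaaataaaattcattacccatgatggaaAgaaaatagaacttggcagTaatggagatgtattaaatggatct
Vmn2r7: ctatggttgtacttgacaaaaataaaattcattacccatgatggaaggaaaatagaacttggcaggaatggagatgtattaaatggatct

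In this window Vmn2r6 differed from Vmn2r7 at 2 bases and Vmn2r4 at 9, whereas Vmn2r2, Vmn2r3 and Vmn2r5 differed at 27, 28 and 27 bases and Vmn2r1 at 39. Since only uniquely placed reads were counted, the share of windows of a read's length along each transcript that also occurs in another annotated gene was computed on the B6 sequence. It was 2.61% for Vmn2r3, 3.61% for Vmn2r1, 5.76% for Vmn2r2 and 7.84% for Vmn2r4, but 18.1% for Vmn2r6, 19.6% for Vmn2r7 and 26.1% for Vmn2r5. Vmn2r6 and Vmn2r7 shared 1532 windows with each other. Most shared windows of Vmn2r5 (23.4% of its windows) were shared with the pseudogene Vmn2r-ps11, which had 73 reads over the 32 libraries. Many of these also occur in Gm26939 (19.1%), which had 0 reads. Read pairs lying wholly in shared sequence were counted for none of these genes, so such low counts do not show that the genes were silent. Vmn2r7 also overlaps Gm26939 on the same strand, in 350 exon bases (3.66% of its exons). Reads of all strains were placed on the B6 genome, and how far sequence differences of 129, SJL and SWR from it moved the counts was not tested.

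Depth ranged from 5106398 to 18640871 reads on genes per library, with a median of 11461344, and all 7 members passed the filter on low counts with 116 or more reads in every library. Libraries were compared in 48 pairs within strain and sex, and none agreed within sampling noise (chi-square per degree of freedom 2.71 to 48.2). The female B6 library of replicate 1 and the male 129 library of replicate 1 stood apart in the 5 markers of ciliated respiratory cells, with summed levels of 287 and 466 CPM (counts scaled to the library size) against 50.6 to 137 CPM in the other 30. Results were computed with and without these 2 libraries. The defining markers of the tissue were present, with Omp, the olfactory marker protein of mature sensory neurons, at 14488 to 23292 normalized counts and Gnao1 at 1151 to 2273.

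Per length, family C genes were among the more abundant V2r transcripts. Levels between genes were compared as TPM, counts per length scaled to the same sum in every library, with the union of annotated exons as the length. Vmn2r2 had the highest level of the family, with a mean of 177 TPM over the 32 mice, and ranked 2 of 122 V2r genes behind Vmn2r88 at 257 TPM. Vmn2r1 (84.1 TPM), Vmn2r7 (79.9 TPM) and Vmn2r6 (76.3 TPM) followed at ranks 7, 9 and 10, and Vmn2r4 (55.0 TPM) at rank 13. Vmn2r3 (27.5 TPM) and Vmn2r5 (22.8 TPM) were the lowest of the family, at ranks 30 and 35, still above the median of 10.985 TPM of the 115 other V2r genes with an annotated length. The place of Vmn2r3 depends on the length used, because its exon union of 17411 bases is far longer than its longest coding transcript of 5149 bases. On coding transcripts it stood at 77.1 TPM and rank 7, while Vmn2r5 stood at 18.9 TPM and fell to rank 47 of 122.

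Family C made up a different share of all V2r transcripts in the 4 strains. It took 14.7% ± 0.797 of the summed V2r TPM in B6 (SD, n = 8, range 13.2 to 15.7), 17.6% ± 0.290 in SWR (17.2 to 17.9), 18.3% ± 0.652 in SJL (17.3 to 19.1) and 20.8% ± 0.296 in 129 (20.4 to 21.2). All 8 B6 mice lay below, and all 8 129 mice above, the mice of every other strain, while the SJL and SWR ranges overlapped. In B6 the summed level of family C was 468 ± 38.7 TPM and that of the other V2r genes 2721 ± 237 TPM, against 461 ± 87.4 and 1755 ± 339 TPM in 129 (SD, n = 8 each). Between B6 and 129 the other V2r levels did not overlap and the family C sums did. Between B6 and SWR it was the family C sums that did not overlap (420 to 521 TPM in B6, 534 to 609 TPM in SWR), while the other V2r levels did (2329 to 3085 and 2536 to 2934 TPM). Between B6 and SJL both overlapped, with a mean family C sum of 582 ± 67.5 TPM in SJL (SD, n = 8). Such summed levels depend on how the libraries are scaled, whereas the shares do not. The median family C sum was 464 TPM in B6 and 468 TPM in 129, but 1665 CPM in B6 and 1833 CPM in 129. The summed levels of the other V2r genes were compared between strains only as TPM. The mapping to the B6 genome bears on the other V2r genes as well, and its part in these shares was not tested.

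**Figure D1:**
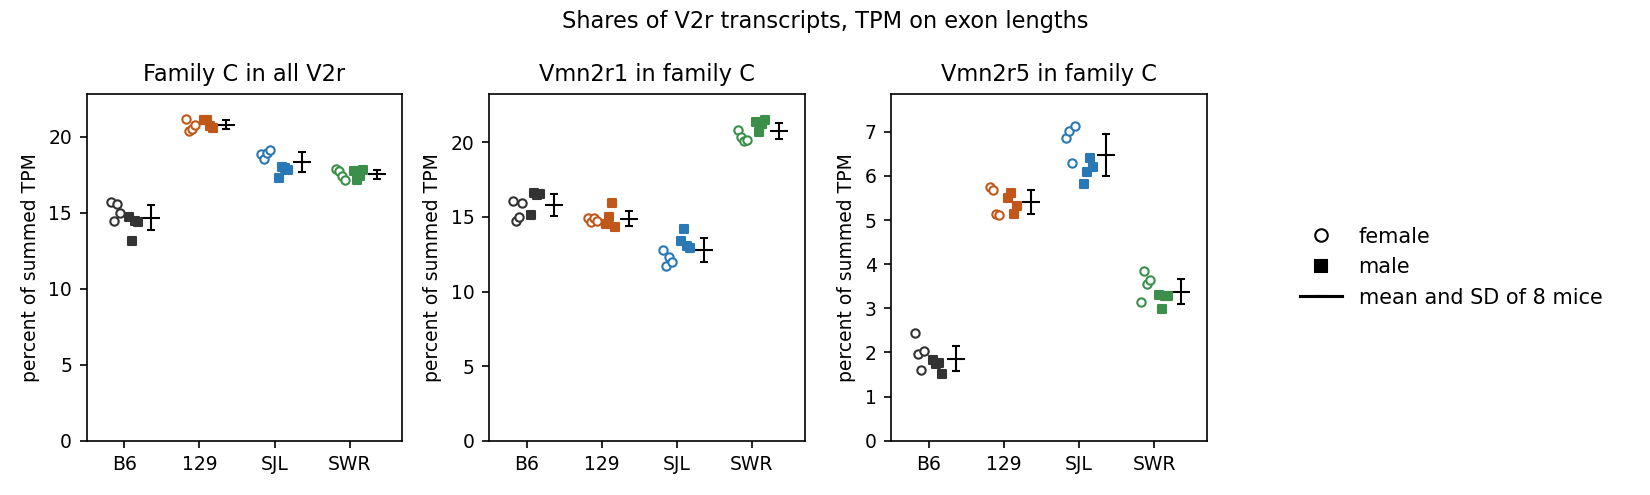
Shares of V2r transcripts in each mouse, as percent of summed TPM on exon unions, by strain, with open circles for females, filled squares for males and bars for the mean and SD of 8 mice. Family C took 13.2 to 15.7% of V2r TPM in B6 and 20.4 to 21.2% in 129, Vmn2r1 took over 20.1% of family C in SWR, and Vmn2r5 had its lowest share in B6.

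The makeup of the family also differed between strains. Vmn2r1 took 20.8% ± 0.533 of the family C TPM in SWR (range 20.1 to 21.5), against 15.8% ± 0.740 in B6 (14.8 to 16.6), 14.9% ± 0.492 in 129 (14.3 to 15.97) and 12.8% ± 0.798 in SJL (11.7 to 14.2). Every SWR mouse was above every other mouse, and every SJL mouse was below every other mouse. Vmn2r5 took 1.86% ± 0.286 in B6, 3.38% ± 0.282 in SWR, 5.41% ± 0.264 in 129 and 6.48% ± 0.474 in SJL (SD, n = 8 each), and these 4 ranges did not overlap. On the longest coding transcripts the 129 and SJL ranges did overlap (4.56 to 5.17% and 5.11 to 6.24%). Here and in all results, bulk RNA cannot tell fewer cells of a type from less RNA per cell.

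Between strains, Vmn2r5 was the member that differed most, and Vmn2r1 the one that set SWR apart. DE was tested in the 6 pairs of strains with the quasi-likelihood test of edgeR, with sex as a covariate and p-values adjusted over 18382 genes (FDR). With FC > 2 (an absolute Log2 fold change, LFC, above 1) and an FDR under 0.05 in at least 1 pair, 1 of the 7 members was called, Vmn2r5, where 19.8% of all genes tested were called. With no limit on FC, all 7 members had an FDR under 0.05 in at least 1 pair, where 80.1% of all genes did. The ranges of 8 against 8 mice did not overlap in at least 1 pair for 6 of the 7 members, against 34.4% of all genes tested, and the exception was Vmn2r4. Of the 114 other V2r genes tested, 78 were called, and their largest absolute LFC over the 6 pairs had a median of 1.57, against 0.51 for the 7 members and 0.44 for all genes tested. Outside Vmn2r5 the largest difference of a member in any pair was 1.64-fold.

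**Figure D2:**
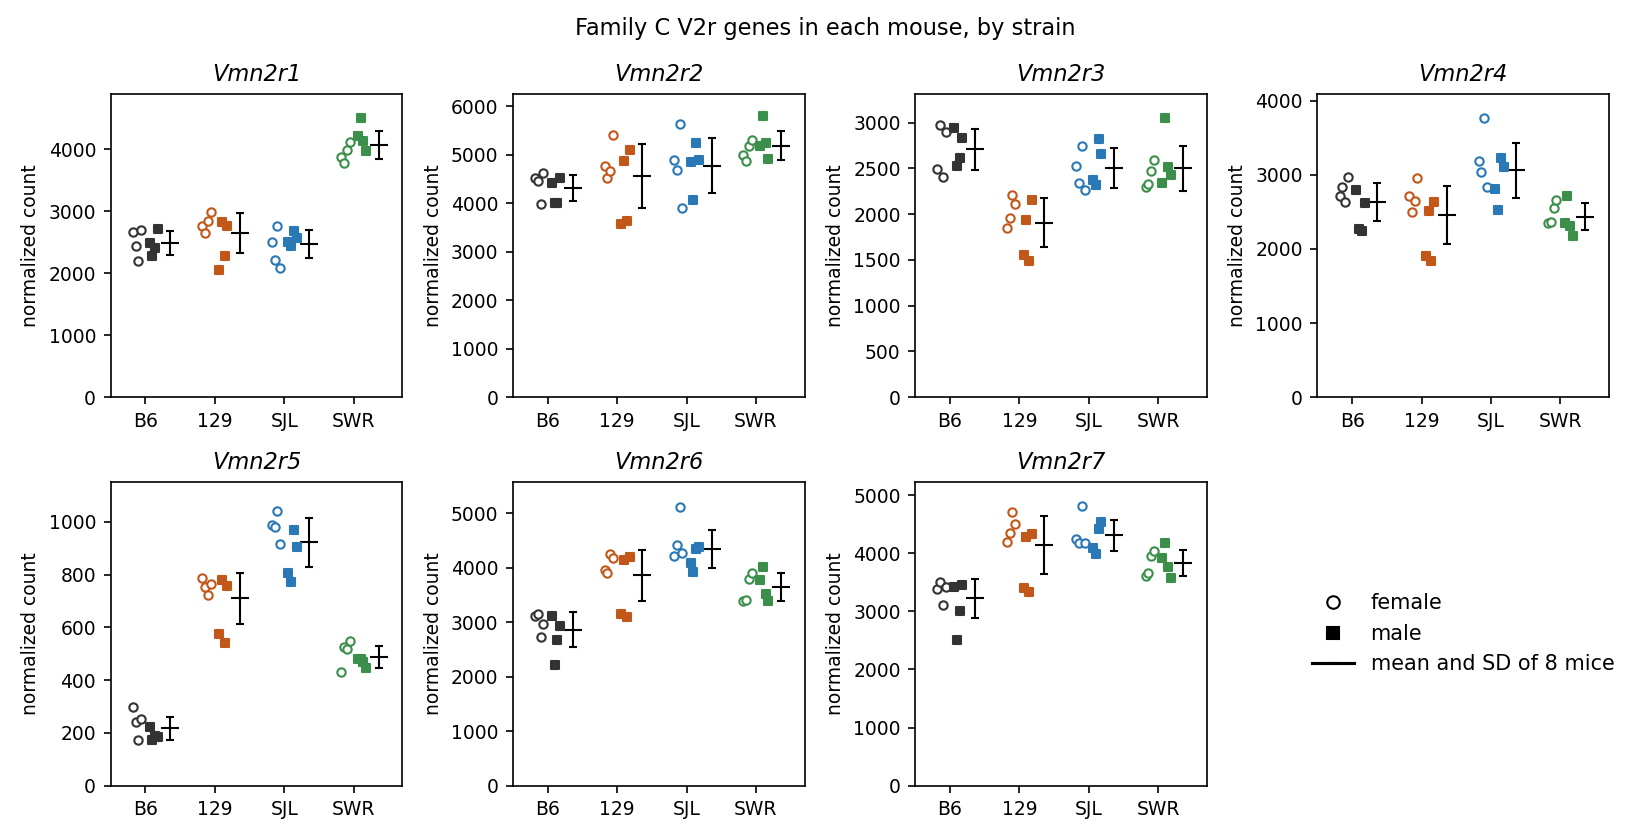
Normalized counts of the 7 members in each of the 32 mice (vertical axes from 0), by strain, with open circles for females, filled squares for males and bars for the mean and SD of 8 mice. Vmn2r5 was at 174 to 296 in B6 and at 431 or more elsewhere, Vmn2r1 was at 3773 to 4501 in SWR and at 2991 or less elsewhere, and Vmn2r3 was lowest in 129.

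Vmn2r5, a member of the Vmn2r2 to Vmn2r7 group, was lowest in B6. Per length it was the lowest member in B6 (8.72 TPM) and SWR (19.6 TPM), while in 129 and SJL Vmn2r3 was lower on exon unions. In B6 females its normalized counts were 296, 240.2, 174 and 255, and in B6 males they were 222, 175, 189.7 and 184. In 129 mice it ranged from 539.7 to 787 (median 756), in SJL mice from 772 to 1042 (median 943) and in SWR mice from 431 to 547 (median 479). The B6 mice were thus below all 24 others, the SJL mice were above all SWR mice, and the 129 range touched both the SJL and the SWR range. The strain means were 217 ± 44.3 in B6, 487 ± 40.4 in SWR, 709.9 ± 96.9 in 129 and 922 ± 93.4 in SJL (SD, n = 8 each). By edgeR the level in B6 was 4.27-fold lower than in SJL (LFC of B6 over SJL -2.09, SE 0.084, FDR 9.04e-21), 3.2996-fold lower than in 129 (LFC -1.72, SE 0.084, FDR 2.99e-18) and 2.26-fold lower than in SWR (LFC -1.18, SE 0.085, FDR 1.24e-13). The steps from SWR to 129 (LFC of 129 over SWR 0.55, FDR 6.24e-07) and from 129 to SJL (LFC of 129 over SJL -0.37, FDR 0.000186) were under 2-fold and also passed the test of edgeR, so every step in the order of the 4 strains passed. B6 is the strain of the reference genome, and Vmn2r5 is the member with the largest share of windows that occur elsewhere in it (26.1%). The part of these shared windows in the low B6 count was not tested.

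Vmn2r1, the member known for its own set of basal neurons, was highest in SWR. Its normalized counts ran from 3773 to 4501 in SWR (median 4052), from 2056 to 2991 in 129 (median 2767), from 2199.7 to 2717 in B6 (median 2465) and from 2084 to 2766 in SJL (median 2502). All 8 SWR mice were above the 24 others, among which the 3 strains overlapped. By edgeR the level in SWR exceeded that in SJL by 1.64-fold (LFC of SJL over SWR -0.72, SE 0.065, FDR 7.37e-11), that in B6 by 1.63-fold (LFC -0.70, FDR 6.72e-11) and that in 129 by 1.53-fold (LFC -0.61, FDR 1.73e-09). The neighbours SJL, B6 and 129 did not differ beyond their spread (FDR 0.208 to 0.885), although without the male 129 library of replicate 1, 1 of those that stood apart, the level in 129 passed the test against B6 (LFC of B6 over 129 -0.14) and against SJL (LFC of 129 over SJL 0.16).

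Vmn2r3 was lowest in 129. It ranged from 1490.3 to 2204 normalized counts in 129 (median 1948), against 2406 to 2972 in B6 (median 2723), 2259.9 to 2823 in SJL (median 2449.8) and 2292 to 3052 in SWR (median 2449). The 8 mice of 129 were below all 24 others, and the other 3 strains overlapped. The level in B6 was 1.42-fold that in 129 (LFC 0.51, SE 0.073, edgeR FDR 6.06e-07), and SJL (LFC of 129 over SJL -0.39, FDR 5.56e-05) and SWR (LFC of 129 over SWR -0.38, FDR 6.35e-05) were also above 129. SJL, SWR and B6 did not differ beyond their spread (edgeR FDR 0.180 to 0.960).

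Vmn2r6 and Vmn2r7, the most similar pair of copies, were both lowest in B6. Vmn2r6 had 2209.5 to 3157 normalized counts in B6 (median 2949.7), 3381 to 4018 in SWR (median 3651), 3090.2 to 4261 in 129 (median 4046) and 3915 to 5114 in SJL (median 4312). Vmn2r7 had 2510.5 to 3499.7 in B6 (median 3402), 3567 to 4184 in SWR (median 3846), 3334 to 4711 in 129 (median 4306) and 3980.2 to 4817 in SJL (median 4217). For both genes the B6 mice were below all SWR and all SJL mice, and the B6 range overlapped that of 129 through 2 male 129 mice. By edgeR the LFC of B6 over SJL was -0.60 for Vmn2r6 (SE 0.067, FDR 5.23e-09) and -0.41 for Vmn2r7 (SE 0.063, FDR 1.93e-06), and that of B6 over 129 was -0.43 (FDR 2.14e-06) and -0.36 (FDR 1.55e-05). The step between SWR and 129 did not pass for either gene (edgeR FDR 0.314 and 0.147). That between 129 and SJL was at the threshold for Vmn2r6 (LFC -0.17, FDR 0.0470, lost without the male 129 library of replicate 1 at a LFC of -0.13) and did not pass for Vmn2r7 (LFC -0.06, FDR 0.523). SJL was above SWR for both (LFC of SJL over SWR 0.25, edgeR FDR 0.00328, and 0.17, FDR 0.0353), and for Vmn2r7 the call was lost under 9 of the alternatives, among them no filter on low counts (LFC 0.16). Of the windows of Vmn2r6, 16.3% also occur in Vmn2r7, and a read pair lying wholly in such sequence could not be placed uniquely.

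Vmn2r2 and Vmn2r4 differed least. Vmn2r2, the most abundant member per length, had 3974 to 4619 normalized counts in B6 (median 4435), 3565 to 5415 in 129 (median 4714), 3906 to 5633 in SJL (median 4866) and 4874 to 5795 in SWR (median 5180.4). The SWR mice were above all B6 mice and overlapped the others, and 1 pair passed, with a LFC of B6 over SWR of -0.26 (SE 0.073, edgeR FDR 0.00488). The LFC of 129 over SWR was -0.18, just short of passing (edgeR FDR 0.0503), and it passed under 21 of the alternatives. Vmn2r4 had 1843 to 2956 normalized counts in 129 (median 2567), 2178 to 2709.8 in SWR (median 2359.6), 2246 to 2973 in B6 (median 2672) and 2523 to 3769 in SJL (median 3078). All 4 ranges overlapped, yet the SJL mean was above those of SWR (LFC of SJL over SWR 0.33, SE 0.073, edgeR FDR 0.000476), 129 (LFC of 129 over SJL -0.31, FDR 0.000763) and B6 (LFC of B6 over SJL -0.21, FDR 0.0166). The neighbours SWR, 129 and B6 did not differ beyond their spread (edgeR FDR 0.190 to 0.863).

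Pair by pair, the members with an FDR under 0.05 numbered 4 between B6 and 129 (52.8% of all genes tested), 4 between B6 and SJL (45.7%), 5 between B6 and SWR (40.9%), 4 between 129 and SJL (38.3%), 3 between 129 and SWR (41.8%) and 5 between SJL and SWR (32.5%). Against SJL and against SWR all members that passed in B6 were lower in B6, and against 129 there were 3 lower and 1 higher, Vmn2r3. The median LFC of the 7 members was -0.09, -0.21 and -0.26 for B6 over 129, SJL and SWR, where the median over all genes was 0.02 in each. It was -0.17 for 129 over SJL, 0.02 for 129 over SWR and 0.17 for SJL over SWR, with medians of 0.01 for all genes.

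**Figure D3:**
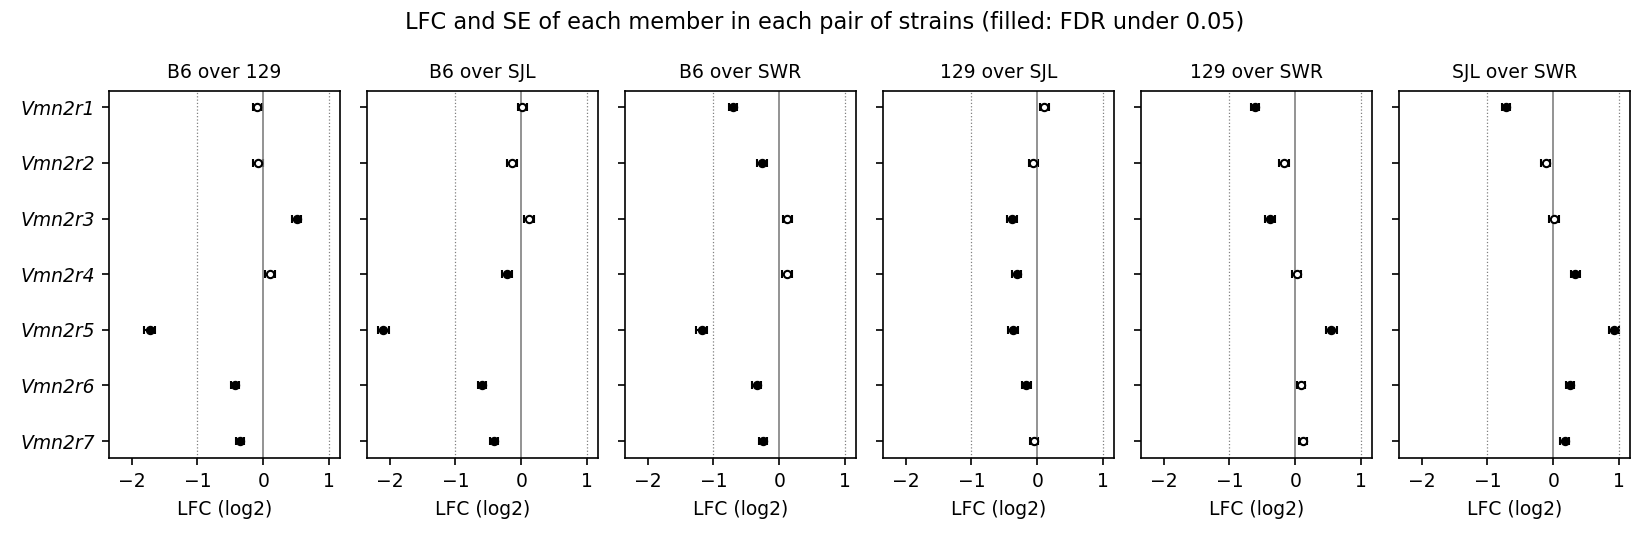
LFC (log2, horizontal axes) of each member in the 6 pairs of strains, with bars for the SE and filled points for an FDR under 0.05 (edgeR). Dotted lines mark a 2-fold difference, which only Vmn2r5 passed, in the 3 pairs with B6.

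Gnao1, which encodes the G protein subunit of the basal neurons, was used as the denominator for basal neurons, although within the groups the members did not follow it (Pearson's r = -0.20 between the mean deviation of the members and that of Gnao1 over 32 libraries, with points that share library and depth). Its own normalized counts were 1419.7 ± 137 in B6, 1548 ± 277 in SJL, 1652 ± 133 in SWR and 1900.3 ± 258 in 129 (SD, n = 8 each), and the LFC of B6 over 129 was -0.42 (edgeR FDR 9.58e-05). The log2 ratio of the count of each member to that of Gnao1 was compared between strains with a two-sided exact permutation test of 8 against 8 mice, with adjustment over the 42 comparisons. Of these 42, 25 had an adjusted p under 0.05, and the smallest p the test allows is 0.000155. The test was run on the members alone, so no share over all genes stands beside this count. These 25 pairs are not the same as the 25 that passed by edgeR. For example, Vmn2r4 between B6 and 129 passed here (exact permutation, difference 0.52, adjusted p = 0.00261) but not by edgeR (FDR 0.250). Vmn2r2 between B6 and SWR passed by edgeR (FDR 0.00488) but not here (exact permutation, difference -0.05, adjusted p = 0.618). The mean ratio of Vmn2r5 was -2.73 in B6, -1.76 in SWR, -1.42 in 129 and -0.73 in SJL, and all 8 B6 mice were below every other mouse (exact permutation, adjusted p = 0.00109 in each of the 3 pairs, the smallest reached). The ratio of Vmn2r1 was 1.30 in SWR, against 0.81 in B6, 0.69 in SJL and 0.48 in 129 (exact permutation, adjusted p = 0.00109 against 129 and 0.00163 against B6 and SJL). Vmn2r3 had a ratio of 0.93 in B6 and 0.00 in 129, with no overlap (exact permutation, adjusted p = 0.00109), but over the summed other V2r genes this difference was 0.04 (exact permutation, adjusted p = 0.160). For Vmn2r6 and Vmn2r7 the ratio in B6 stayed below that in SJL (exact permutation, difference -0.49, adjusted p = 0.00261, and -0.31, adjusted p = 0.0275). For Vmn2r7 this call was lost with Tfap2e in place of Gnao1 (difference -0.03) and without any 1 of 4 SJL libraries (female replicates 1, 2 and 3 and male replicate 4, -0.29 to -0.26). Relative to Gnao1 no difference between B6 and 129 was detectable for Vmn2r6 or Vmn2r7 (exact permutation, difference -0.01, adjusted p = 0.905, and 0.06, adjusted p = 0.618). The LFC of B6 over 129 was -0.43 and -0.36 for these genes, near the -0.42 of Gnao1 itself. The ratio therefore does not show that their levels were alike in both strains. With the summed counts of the other V2r genes in place of Gnao1, 34 comparisons had an adjusted p under 0.05 and 7 of the 25 differences changed sign, all of them in pairs with 129. A further 5 of the 25 kept their sign and lost the call.

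**Figure D4:**
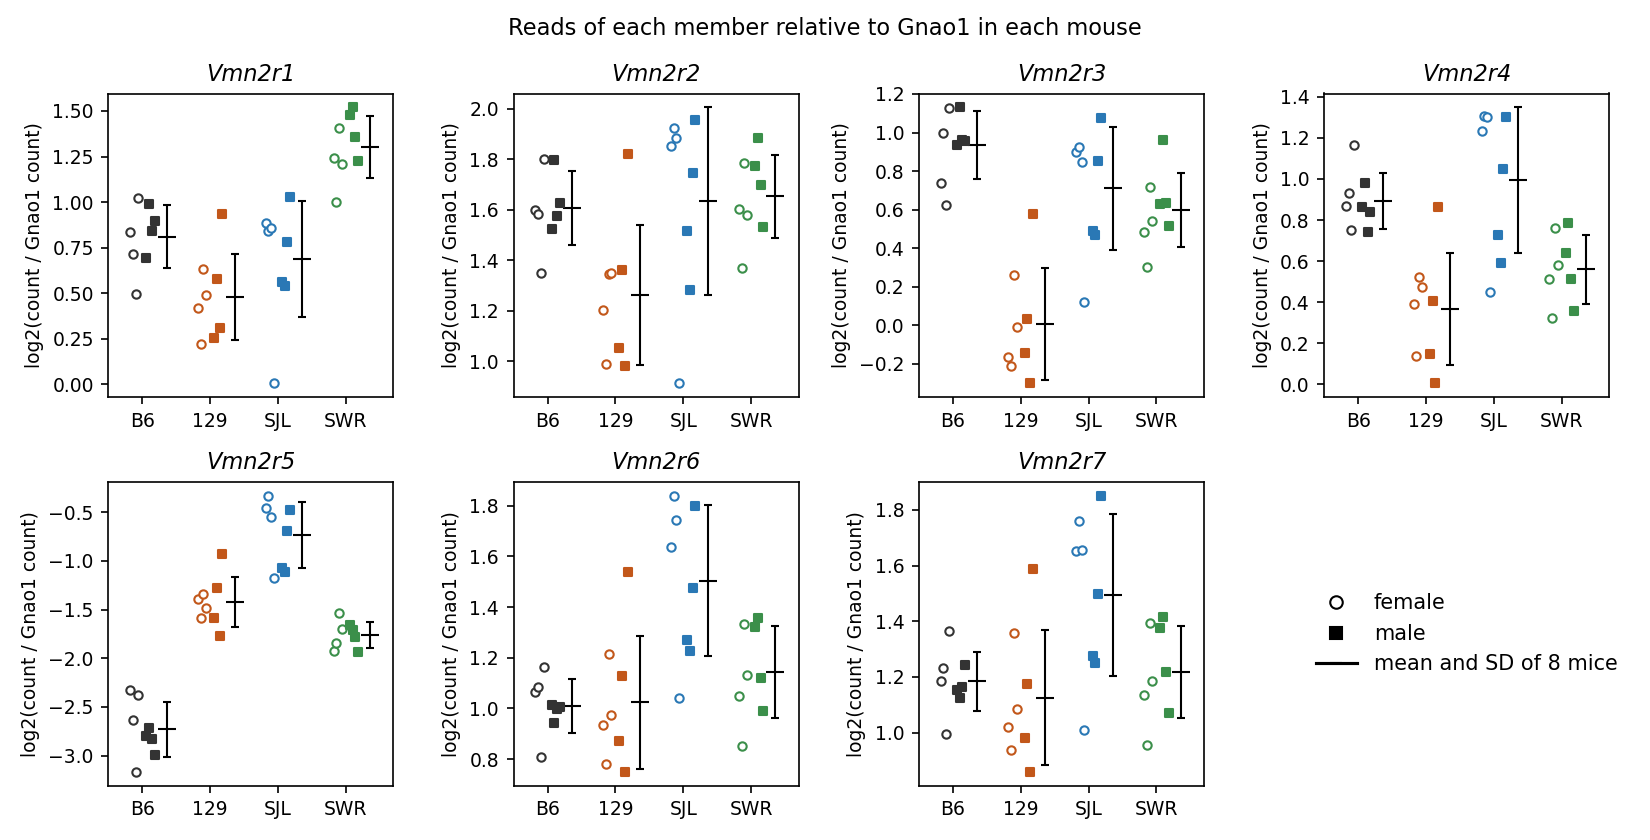
Log2 ratio of the count of each member to the count of Gnao1 in each mouse, by strain (vertical axes differ between panels), with open circles for females, filled squares for males and bars for the mean and SD of 8 mice. Vmn2r5 was lowest in B6 (mean -2.73) and Vmn2r1 highest in SWR (mean 1.30).

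No member was called between the sexes. With strain as an additive term, FC > 2 and an FDR under 0.01, 0 of the 7 members were called by edgeR, where 0.0381% of all genes were, and 0 had an FDR under 0.05 (0.283% of all genes). At an unadjusted p under 0.05 there were 2 members, Vmn2r5 (LFC of males over females -0.19, 95% interval -0.30 to -0.08, edgeR FDR 0.190) and Vmn2r4 (LFC -0.16, 95% interval -0.26 to -0.06, edgeR FDR 0.260). The share of all genes at this unadjusted limit was not counted. DESeq2 also left 0 members with an FDR under 0.05. The females of B6 had 174 to 296 normalized counts of Vmn2r5 and the males 175 to 222, and in SJL the females had 917 to 1042 and the males 772 to 969. Males and females overlapped for Vmn2r5 in B6, SJL, SWR and 129. For Vmn2r6 and Vmn2r7 the LFC was -0.10 and -0.09, for Vmn2r2 it was -0.04, and for Vmn2r1 and Vmn2r3 it lay within 0.01 of 0, with a sign that turned under other settings. The 95% intervals of all 7 members lay between -0.30 and 0.09. These are normal intervals, not adjusted for the number of members and somewhat narrower than the edgeR test implies. That of Vmn2r6 (-0.19 to -0.0028) left out 0, while its unadjusted edgeR p was 0.0515.

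Within single strains, 0 members had an FDR under 0.05 in the 4 contrasts of 4 males and 4 females (0.430% of all genes did in at least 1 strain), and 4 of the 28 contrasts had an unadjusted p under 0.05. These were Vmn2r4 (LFC -0.28), Vmn2r7 (LFC -0.21) and Vmn2r1 (LFC -0.18) in 129 and Vmn2r5 (LFC -0.31) in B6, all lower in males. The share of all genes at that unadjusted limit was not counted. Members moved together within groups (Pearson's r 0.61 to 0.97), so the contrasts in 129 are not separate results. The difference between strains in the effect of sex was tested as an interaction, which 0 members passed by edgeR at an FDR under 0.05 (0.0163% of all genes) or at an unadjusted p under 0.05, and DESeq2 also left 0 at an FDR under 0.05. The smallest interaction p was that of Vmn2r1 (edgeR FDR 0.636).

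Libraries of the same strain and sex differed in family C as a whole. With 1 library per mouse, differences between mice cannot be told apart from those of dissection or library preparation. Within the 8 groups, the SD of log2 CPM was 0.13 to 0.16 for 6 members and 0.18 for Vmn2r5. All 7 members were below their group mean in 9 of the 32 libraries and above it in 10, and other gene sets were not counted in this way. The mean deviation of the 7 members ran from -0.21 (male 129, replicate 3) to 0.22 (male 129, replicate 4), which is 0.862 to 1.17 times the group mean. The male 129 mice fell into 2 with low and 2 with high values of every member. The low ones were replicates 1 and 3, the first of which stood apart in ciliated markers (466 CPM). Across the 32 libraries, after centring by group, Pearson's r between members ranged from 0.61 (Vmn2r3 and Vmn2r5) to 0.97 (Vmn2r6 and Vmn2r7). The mean deviation of the members followed that of the summed other V2r genes (Pearson's r = 0.89, Spearman's rho = 0.86, and r = 0.86 without the 2 farthest libraries) and not that of Gnao1 (Pearson's r = -0.20, Spearman's rho = -0.12, and r = -0.08 without them). These correlations are descriptions, and the points share library and depth. The sum of the other V2r genes was scaled to library size alone, and single genes also by TMM.

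**Figure D5:**
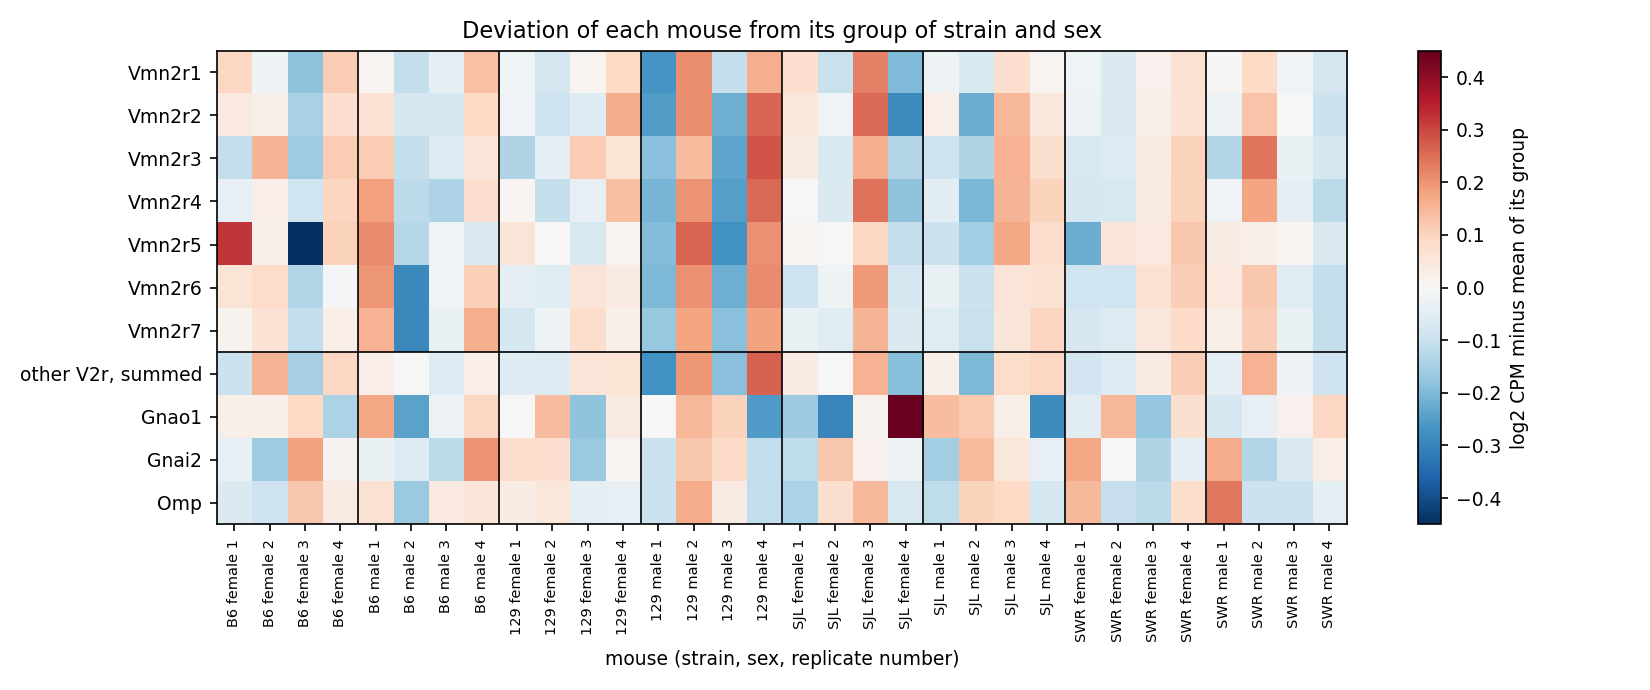
Deviation of each library from the mean of its group of strain and sex (colour, log2 CPM), with libraries in columns and genes in rows. The 7 members and the summed other V2r genes moved together across libraries (Pearson's r = 0.89 for the mean of the members), and Gnao1 did not follow them (r = -0.20). Genes outside the V2r family also moved with members, such as Osbpl9 with Vmn2r3 (Pearson's r = 0.91). The summed row is scaled to library size alone, and the rows of single genes also by TMM.

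For each member, the 3 tested genes most alike in these centred values were found among 18382. Members led for 5 of the 7. Vmn2r1 was nearest to Vmn2r2 (r = 0.91), then to Tcea1 (0.86) and Zdhhc13 (0.85). Vmn2r2 was nearest to Vmn2r4 (0.94), Vmn2r88 (0.92) and Ergic2 (0.91), and Vmn2r4 to Vmn2r2 (0.94), Vmn2r-ps159 (0.91) and Vmn2r49 (0.89). Vmn2r6 was nearest to Vmn2r7 (0.97), Ncapg2 (0.88) and Vmn2r4 (0.86), and Vmn2r7 to Vmn2r6 (0.97), Vmn2r4 (0.85) and Ncapg2 (0.85). Vmn2r3 was nearest to Osbpl9 (0.91), Vmn2r105 (0.89) and Vmn2r-ps159 (0.88). Vmn2r5 had weaker neighbours, Smek2 (0.78), Magt1 (0.77) and Scrn3 (0.77). All r are Pearson's over 32 libraries, and leaving out the 2 farthest libraries left them between 0.65 and 0.97. None of the 5 basal zone genes listed below (Gnao1, Tfap2e and others) was among these, although V2r genes, which are also of the basal zone, were. The r with Gnao1 was between -0.32 and -0.05 for the 7 members.

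Of the gene lists chosen around V2r neurons, the H2-Mv list held the called genes. H2-Mv genes encode non-classical class I MHC molecules that are made in V2r neurons together with sets of V2r receptors. Of the 9 H2-Mv genes tested, 6 were called in at least 1 pair of strains, where 19.8% of all genes tested were, namely H2-M1, H2-M9, H2-M10.2, H2-M10.3, H2-M10.4 and H2-M10.5. The direction differed by gene. H2-M10.2 was lowest in B6, at 838 ± 68.5 normalized counts against 2043 ± 193 in SJL (LFC of B6 over SJL -1.28, edgeR FDR 5.91e-18), H2-M10.5 was highest in B6, at 3268 ± 257 against 1484 ± 167 in SWR (LFC of B6 over SWR 1.15, edgeR FDR 1.23e-14), and H2-M10.4 was higher in B6 and SWR than in 129 and SJL (LFC of SJL over SWR -1.67, edgeR FDR 1.01e-17). H2-M1 was higher in SWR than in SJL (LFC of SJL over SWR -1.46), H2-M9 was higher in SWR than in 129 (LFC of 129 over SWR -1.11), and H2-M10.3 was higher in SWR than in 129 (LFC of 129 over SWR -1.05). Sequence shared among H2-Mv genes was not measured.

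Of the 5 basal zone genes (Gnao1, the transcription factor gene Tfap2e and others), 0 were called and 5 had an FDR under 0.05 in at least 1 pair, against 19.8% and 80.1% of all genes tested. Of the 6 apical zone genes 0 were called and all 6 had an FDR under 0.05, among which Gnai2 was lower in B6 than in 129 (LFC of B6 over 129 -0.46, edgeR FDR 4.10e-07), SJL (LFC -0.53, FDR 3.39e-08) and SWR (LFC -0.42, FDR 2.42e-06). Of the 6 transduction genes 5 were tested, 0 were called and 4 had an FDR under 0.05, among them Omp, which was lower in B6 than in 129 (LFC -0.24, edgeR FDR 0.00151), and Xntrpc, whose readthrough transcript covers the channel gene Trpc2 (LFC of B6 over 129 -0.76, edgeR FDR 2.11e-11). Of the 6 genes of ER chaperones and partners 0 were called and 5 had an FDR under 0.05. In the sexes 0 genes of these lists had an FDR under 0.05.

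Markers of other cells moved between strains as well. The summed level of the 5 macrophage markers was 83.2 to 115 CPM in B6 and 35.3 to 49.7 CPM in 129, that of the 5 olfactory sensory neuron markers was 326 to 458 CPM in SJL and 220 to 278 CPM in B6, and that of the 5 neuron progenitor and immature neuron markers was 104 to 138 CPM in 129 and 71.8 to 96.7 CPM in SWR. Markers called in at least 1 pair were 3 of 5 for macrophages, 2 of 4 tested for olfactory sensory neurons, 0 of 4 tested for progenitors, 3 of 5 for red blood cells, 2 of 2 tested for B lymphocytes, 2 of 4 for bone and cartilage and 3 of 5 for ciliated cells, where 19.8% of all genes tested were called. The T lymphocyte and skeletal muscle markers stayed at 4.11 CPM or less in every library and were not tested. The family C sum was 1467 to 1775 CPM in B6 and 1366 to 1927 CPM in 129, and the part of these other cells in the differences between strains was not tested.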

How the data were processed

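Gene expression was measured as RNA-seq of 32 VNO neuroepithelia, 1 mouse per library. The authors made stranded, ribodepleted total RNA libraries, trimmed the reads, placed them with STAR on GRCm38 (mm10) with the genes of Ensembl 87, and deposited for each gene the count of uniquely placed read pairs on its strand. The deposited normalized signal is the count divided by a DESeq2 size factor, and the ratio of the tables was the same for all genes of a library. The replicate number is the number from 1 to 4 in the library description, and each number holds 1 library of each group. That it stands for the sequencing lane was assumed.

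From the counts, DE was tested with edgeR 4.0.16 (limma 3.58.1, R 4.3.3): TMM, filterByExpr over the 8 groups, quasi-likelihood F test, Benjamini-Hochberg over 18382 genes. Strain pairs had sex as a covariate, and sexes within strains and the interaction used 8 group means. The SE was taken from the LFC and its F statistic, and 95% intervals are normal ones. DESeq2 1.42.0 was an alternative. Ratios to Gnao1 were compared by exact permutation. CPM used a prior count of 1 for likeness. Of the 49671 genes, 49326 were found in GENCODE M21 by identifier, which gave the exon lengths for TPM, computed here. Windows and sequences come from its transcripts. Members were matched by symbol, and the named genes are all 7 members, list genes called between strains, Gnao1, Gnai2, Omp and Xntrpc, and the 3 genes most alike to each member. Members and lists were chosen with earlier results of these data known. The lists also held markers of red blood cells, B and T lymphocytes, macrophages, skeletal muscle, bone and cartilage, ciliated, olfactory and immature cells. The steps were tested on simulated data. P-values set a difference against the spread between libraries, with 1 library from each mouse.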

Additional observations from a re-analysis of the deposited data

Results flagged for a closer look

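In groups of 4 or 8 mice, a mouse that stood far from the others of its group was found in 5 of the 112 sets of member values, where chance gives about 5%. In SWR, male replicate 2 was the highest for Vmn2r2, with 5795 normalized counts against 4874 to 5310.5 in the other SWR mice, and for Vmn2r3, with 3052 against 2292 to 2589. In SJL, female replicate 3 was the highest for Vmn2r6, with 5114 normalized counts against 3915 to 4410.1, and among SJL females for Vmn2r7, with 4817 against 4174 to 4255. In 129, the log2 ratio of Vmn2r2 to Gnao1 was 1.82 in male replicate 4 and 0.98 to 1.36 in the other 129 mice. No difference between strains in the effect of sex passed a test.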

How the results depend on the processing

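The 6 counts of members from edgeR kept their values (1 called and 7 with an FDR under 0.05 between strains, 0 in the 4 tests of sex) with DESeq2, DESeq2 size factors, library size alone, no filter, without both libraries with high ciliated markers and without each library in turn, and the first count also when tested against a LFC of 1. Of the 25 strain differences with an FDR under 0.05, none changed direction, and 2 lost the call under some settings, Vmn2r6 between 129 and SJL (12 settings) and Vmn2r7 between SJL and SWR (9 settings). The 25 differences in the ratio to Gnao1 with an adjusted p under 0.05 became 34 with the summed other V2r genes, 23 with Tfap2e, 25 with Omp and 23 without both libraries, and 23 to 28 without each library in turn. With the summed other V2r genes the difference changed sign for B6 minus 129 in Vmn2r1 (-0.56), Vmn2r2 (-0.54) and Vmn2r4 (-0.36), for 129 minus SWR in Vmn2r2 (0.21) and Vmn2r3 (0.0085), and for 129 minus SJL in Vmn2r6 (0.077) and Vmn2r7 (0.19), and the cause was not tested. In 12 of the 25 differences the call was lost with no change of sign under at least 1 setting. With the summed other V2r genes these were Vmn2r3 for B6 minus 129 (0.045) and B6 minus SWR (0.053), Vmn2r4 for B6 minus SWR (0.050) and 129 minus SJL (-0.070), and Vmn2r5 for 129 minus SJL (-0.13), and Vmn2r7 for 129 minus SJL was also lost without any 1 of 8 libraries.

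Differences near 0 that had not passed changed sign. Without the filter the LFC was -0.017 for Vmn2r1 in B6 over SJL, -0.0017 for Vmn2r3 in SJL over SWR, and 0.0069 and 0.0028 for Vmn2r1 and Vmn2r3 in males over females. Without both libraries it was -0.0046 for Vmn2r1 in B6 over SJL, and 0.033 and 0.0058 for Vmn2r1 and Vmn2r3 in males over females. With library size alone it was -0.015 for Vmn2r4 in 129 over SWR. Without each library in turn it ran from -0.023 to 0.038 for Vmn2r1 in B6 over SJL, from -0.017 to 0.063 for Vmn2r4 in 129 over SWR, from -0.027 to 0.049 for Vmn2r3 in SJL over SWR, from -0.019 to 0.023 for Vmn2r1 in males over females and from -0.031 to 0.017 for Vmn2r3 in males over females.

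Depth limits small differences of Vmn2r5 in B6 most, where libraries held 116 to 278 reads of it. On the longest coding transcripts, an alternative added after seeing the data, the share of family C in V2r TPM was 20.3% in 129 and 17.2% in SWR, and the 129 and SJL ranges of the Vmn2r5 share overlapped. With the replicate number as a block, the counts stayed at 1, 7 and 0, and 25 ratios to Gnao1 had an adjusted p under 0.05, while Vmn2r6 between 129 and SJL (LFC -0.17) no longer passed. The numbers gave no sign of pairing the libraries, since r between deviations of libraries with the same number had a mean of -0.0032 (-0.28 to 0.44, 112 pairs), against 0.0014 for different numbers (336 pairs), and 7 of the 32 libraries correlated best with a library of their own number.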
